A study of Rattus norvegicus with 4 samples.

Results

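The genes described here build, carry and use microRNAs (miRNAs), and they were followed in rat heart muscle cells given extra copies of 1 miRNA at a time. The 10 members were chosen by name from the deposited table of 15731 genes, and all 10 names looked for were found. They are the nuclear processing enzyme *Drosha* (ENSRNOG00000013451) with its partner *Dgcr8* (ENSRNOG00000001886), the exporter *Xpo5* (ENSRNOG00000019085), the cytoplasmic processing enzyme *Dicer1* (ENSRNOG00000010711), the Argonautes *Ago1* (ENSRNOG00000055915), *Ago2* (ENSRNOG00000008533), *Ago3* (ENSRNOG00000034269) and *Ago4* (ENSRNOG00000025596), and the Argonaute-binding scaffolds *Tnrc6a* (ENSRNOG00000024737) and *Tnrc6b* (ENSRNOG00000024907). The remaining paralog *Tnrc6c* (ENSRNOG00000022395) is given beside them.

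A miRNA is transcribed as a longer hairpin, which Drosha and Dgcr8 trim in the nucleus and Exportin-5 carries to the cytoplasm, where Dicer cuts it to a short duplex. A single strand is loaded into an Argonaute protein, which finds mRNAs by pairing with the seed near the 5′ end of the miRNA. TNRC6 scaffold proteins then bring in the complexes that remove the poly(A) tail and the cap of the mRNA. A transfected mimic is a ready-made duplex, so it enters this route at Argonaute loading, after the steps of Drosha, Exportin-5 and Dicer. Ago2 is the Argonaute of mammals best known for cutting a fully paired target.

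Ventricular cardiomyocytes of wild type Wistar rats, given as postnatal day 1 animals in 1 place of the labels and as day 0 in another, were cultured and transfected with a mimic of hsa-miR-25-3p, hsa-miR-93-5p or hsa-miR-106b-5p, or after cel-miR-67, a worm miRNA that served as the control mimic. The labels give a mimic concentration of 25 nM in 1 place and 25 mM in another, and RNA was taken 72 h after transfection. Each of the 4 mimics has 1 library, all cultures received a mimic and transfection reagent, and no untransfected culture was analysed here. The cells are those left in suspension after a first plating, which the labels describe as mostly cardiomyocytes and not as a pure population.

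The 3 cluster miRNAs fall into 2 seed groups, and the sequences are printed to show which of them share a seed. Among the values below, *Ago1* and *Ago2* were lowest after miR-106b and miR-93, while *Tnrc6a* and *Xpo5* differed between those 2 mimics and *Ago3* was highest in the control. A tie of any value to the seed was not tested. The sequences are the rat mature miRNAs of RefSeq on the GRCr8 build, all on the minus strand and inside the span of the gene *Mcm7*. rno-miR-106b-5p lies at chr12:22157103-22157123, rno-miR-93-5p at chr12:22156894-22156916 and rno-miR-25-3p at chr12:22156652-22156673. The capitals mark the seed, bases 2 to 8, and the sequences of the human-named mimics and of cel-miR-67 were not used here.
rno-miR-106b-5p: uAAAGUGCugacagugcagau
rno-miR-93-5p: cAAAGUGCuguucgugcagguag
rno-miR-25-3p: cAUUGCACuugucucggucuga
The miR-106b and miR-93 sequences share the seed AAAGUGC, and the seed of miR-25 is AUUGCAC.

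All values are RPKM as deposited, that is reads divided by gene length in kilobases and by library size, so that levels can be compared between genes per length. A fold change is a mimic's RPKM over that of cel-miR-67, given as log2. A gene was compared only with RPKM above 1.0 in both libraries and was called higher or lower past 1.3-fold. The brackets hold 95% exact Clopper-Pearson counting intervals, made from whole reads recovered from the RPKM values. With 1 library for each mimic no test between conditions was possible, so a difference beyond its interval is a difference between these libraries, without a replicate check. The intervals cover counting error only, since reads without molecular identifiers are not independent molecules. The 3 comparisons share the cel-miR-67 library, so a value that is high or low there enters all 3.

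Reads on listed genes numbered between 15175263 and 18797319, which was between 60.4% and 66.9% of the library size used for RPKM. Summed RPKM of the 8 cardiomyocyte markers was between 10565 and 14335, against 110.0 to 210 for 6 fibroblast markers, 148 to 487 for 4 smooth muscle and pericyte markers, 3.58 to 4.37 for the 3 endothelial markers listed and 3.52 to 7.58 for 4 macrophage markers. The cultures thus carried the cardiomyocyte markers of their label, and single markers differed between libraries more than the sums. *Tnni3* had 15.9 RPKM after miR-25 against 351 after cel-miR-67, and *Nppa* had 4425 against 1860. No marker of any type was at 0 in any library, and some of the other markers were abundant, with *Acta2* at 128 to 440 RPKM and *Postn* at 43.1 to 107 RPKM.

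The members differed in how much they varied, and in the deposited values *Ago1*, *Ago2* and *Ago3* varied most. The highest library was 2.24-fold above the lowest for *Ago1*, 1.74-fold for *Ago2* and 1.55-fold for *Ago3*. The same range was 1.38-fold for *Dicer1*, 1.32-fold for *Tnrc6a*, 1.28-fold for *Drosha*, 1.16-fold for *Dgcr8*, 1.11-fold for *Xpo5* and 1.08-fold for *Tnrc6b*. Over the 10984 genes above RPKM 1.0 in every library the median range was 1.44-fold, with quartiles of 1.26 and 1.79, so 6 of these 9 members lay under that median. *Tnrc6b* was among the steadiest genes of the table, with 1.63% of genes at a range as small or smaller, and the share was 4.50% for *Xpo5*. With RPKM rescaled to the reads on listed genes these shares were 10.3% and 4.63%. *Ago3* then had a range of 1.39-fold, near *Dicer1* at 1.37-fold and under the rescaled median of 1.47-fold. Depth was unlike too: the control library held 152 reads of *Ago1* and 252 of *Ago3*, against 1585 of *Xpo5* and 1762 of *Tnrc6b*. Counting error widens the range of a gene with few reads more. *Ago1* stood at the other end, with 87.6% of genes at a range as small or smaller.

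**Figure D1:**
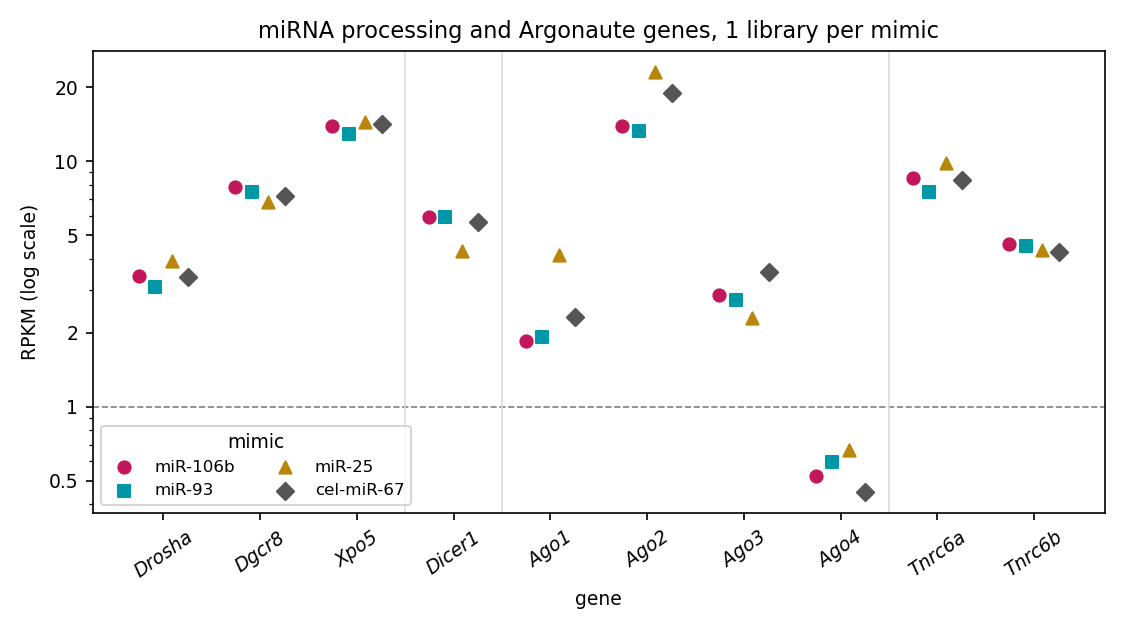
RPKM on a log axis for each of the 10 members, with 1 point for the library of each mimic, and a dashed line at RPKM 1.0. *Ago1* and *Ago2* are lowest after miR-106b and miR-93 and highest after miR-25, *Ago3* is highest after cel-miR-67, and the 4 points of *Xpo5* and *Tnrc6b* nearly coincide.

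As a group the members were not called more often than other genes. After miR-106b, 9 of the 10 members passed the RPKM limit, 0 were higher and 1 was lower, where 11.9% of all genes compared were higher and 12.7% lower. After miR-93 the counts were 0 higher and 1 lower of 9, against 15.1% and 15.6% of all genes. After miR-25 they were 1 higher and 2 lower of 9, against 19.3% and 22.6% of all genes. These shares are near or under the background, so the counts are no result about the members as a group. The median size of the log2 fold change without its sign was 0.11 after miR-106b, 0.14 after miR-93 and 0.23 after miR-25 over the 9 members, and 0.20, 0.23 and 0.31 over all genes compared. The member outside these counts is *Ago4*, which was under RPKM 1.0 in every library.

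The genes that make the hairpin and move it out of the nucleus stayed within 1.3-fold with every mimic. *Drosha*, the nuclear RNase III enzyme, had an RPKM of 3.41 after miR-106b, 3.08 after miR-93, 3.93 after miR-25 and 3.37 after cel-miR-67. Its miR-25 library was the highest, at a log2 fold change of 0.22 (0.02 to 0.43), and the other 3 libraries were not separable in neighbouring pairs. *Dgcr8*, which binds the hairpin for Drosha, had 7.87, 7.45, 6.78 and 7.18 RPKM in the same order of mimics. The log2 fold changes of *Dgcr8* were 0.13, 0.05 and -0.08, and all 3 intervals included 0. With RPKM rescaled to the reads on listed genes they were 0.21 (0.08 to 0.35), 0.20 (0.06 to 0.34) and 0.07 (-0.08 to 0.21). The first 2 were then above the control beyond counting error and the last had turned in sign. The same rescaling put the median of all genes compared at 0.08, 0.14 and 0.13, so rescaled values are to be read against these medians. *Xpo5*, the exporter of the trimmed hairpin, had 13.9, 12.9, 14.4 and 14.2 RPKM, which made it as abundant per length as *Ago2* after miR-106b and miR-93. Its miR-93 library was the lowest at a log2 fold change of -0.14 (-0.23 to -0.04), which is beyond counting error and under the 1.3-fold limit. That difference was lost after rescaling to the reads on listed genes, where it was 0.010 (-0.089 to 0.11), while *Xpo5* after miR-25 came to 0.17 (0.07 to 0.26).

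*Dicer1*, the enzyme that cuts the hairpin in the cytoplasm, was lower after miR-25, and its differences with the other mimics were within counting error as deposited. Its RPKM was 5.93 after miR-106b, 5.91 after miR-93, 4.31 after miR-25 and 5.67 after cel-miR-67, from 1740, 1592, 1157 and 1268 reads. The log2 fold change after miR-25 was -0.40 (-0.51 to -0.28), which is 1.32-fold and just past the limit. After miR-106b and miR-93 it was 0.06 each, with intervals of -0.04 to 0.17 and -0.05 to 0.17. Set directly against the miR-106b library, *Dicer1* after miR-25 was lower by a log2 of -0.46 (-0.57 to -0.35). The call after miR-25 depends on the scaling: with RPKM rescaled to the reads on listed genes the log2 fold change was -0.25, inside the limit and in the same direction. The median of all genes compared after miR-25 was then 0.13. Centred on the median gene instead, *Dicer1* after miR-25 was at -0.39, past the limit. The rescaled values for miR-106b and miR-93 were 0.15 (0.04 to 0.25) and 0.21 (0.10 to 0.31), where the medians of all genes compared were 0.08 and 0.14. The ratio of *Drosha* to *Dicer1* within a library, which no scaling of a library can alter, was 0.576 after miR-106b, 0.521 after miR-93, 0.913 after miR-25 and 0.594 after cel-miR-67. After miR-25 this ratio was above that of the control by a log2 of 0.62 (0.39 to 0.86). It restates the separate values of *Drosha* and *Dicer1* and is no further support for either.

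*Ago2* was the most abundant Argonaute in every library, and it was highest after miR-25 and lowest after miR-106b and miR-93. Its RPKM was 13.9 after miR-106b, 13.3 after miR-93, 23.1 after miR-25 and 18.9 after cel-miR-67, from 1289, 1133, 1963 and 1333 reads. The miR-106b and miR-93 libraries were the low pair and did not differ from each other beyond counting error (log2 of miR-93 over miR-106b -0.06, -0.18 to 0.05). Against cel-miR-67, *Ago2* was lower by 1.36-fold after miR-106b, at a log2 fold change of -0.44 (-0.55 to -0.33), and by 1.42-fold after miR-93, at -0.50 (-0.62 to -0.39). After miR-25 the log2 fold change was 0.29 (0.19 to 0.39), above the control beyond counting error and within the 1.3-fold limit. The miR-25 library was above miR-106b by a log2 of 0.73 (0.63 to 0.84) and above miR-93 by 0.80 (0.69 to 0.90). With rescaling to the reads on listed genes the directions stayed and the calls did not: the log2 fold change was -0.36 after miR-106b, -0.36 after miR-93 and 0.44 after miR-25, so that only the last was past the limit. The medians of all genes compared were then 0.08, 0.14 and 0.13 in this order.

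*Ago1*, an Argonaute that represses mRNAs without cutting them, was, like *Ago2*, highest after miR-25, next in the control and lower after the other mimics, at a lower level. Its RPKM was 1.85 after miR-106b, 1.92 after miR-93, 4.14 after miR-25 and 2.32 after cel-miR-67, from 159, 151, 326 and 152 reads. The miR-25 library stood alone, 1.78-fold above the control at a log2 fold change of 0.84 (0.55 to 1.12), which was the largest difference from the control among the members compared. After miR-106b and miR-93 the log2 fold changes were -0.33 (-0.66 to 0.00) and -0.28 (-0.61 to 0.06), so these lower values were at or within counting error. The miR-25 library was above the miR-106b library by a log2 of 1.16 (0.88 to 1.45).

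*Ago3*, another paralog, went the other way after miR-25 and was highest in the control library. Its RPKM was 2.86 after miR-106b, 2.73 after miR-93, 2.29 after miR-25 and 3.54 after cel-miR-67, from 267, 234, 196 and 252 reads. It was lower after miR-25 by 1.55-fold, at a log2 fold change of -0.63 (-0.90 to -0.35). After miR-93 the log2 fold change was -0.38 (-0.64 to -0.11), or 1.297-fold, just inside the limit, and after miR-106b it was -0.31 (-0.56 to -0.05). In the deposited values *Ago3* was the only member with all 3 mimic libraries under the control beyond counting error, and the neighbouring miR-93 and miR-25 libraries could not be separated from each other. After rescaling to the reads on listed genes *Ago3* was under the control beyond counting error for miR-25 alone, at -0.48 (-0.76 to -0.20). The values of -0.23 (-0.48 to 0.03) for miR-106b and -0.23 (-0.49 to 0.03) for miR-93 were then within counting error. That rescaling put the median of all genes compared at 0.08 after miR-106b and 0.14 after miR-93. Centred on the median gene instead, *Ago3* was at -0.31 after miR-106b and -0.37 after miR-93. *Ago4* had 0.522, 0.598, 0.668 and 0.448 RPKM in the order miR-106b, miR-93, miR-25 and cel-miR-67, from 58, 61, 68 and 38 reads. No neighbouring pair of *Ago4* libraries differed beyond counting error, and a difference from the control was not detectable at this depth.

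**Figure D2:**
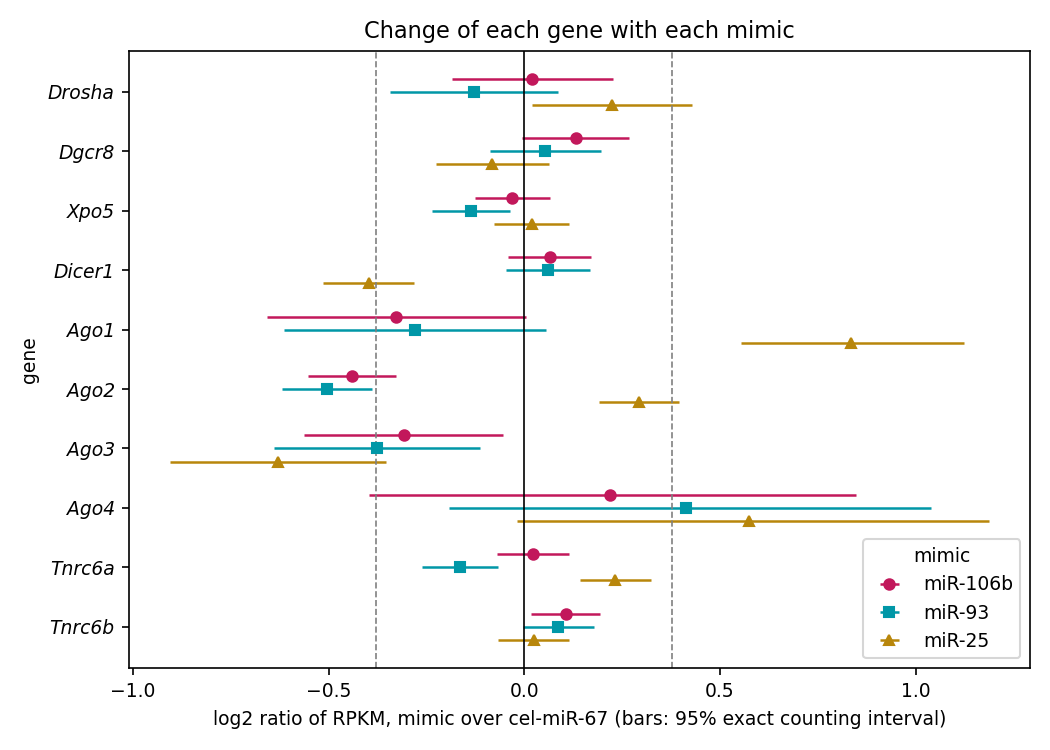
Log2 fold change of RPKM over cel-miR-67 for each member and mimic, with bars for the 95% exact counting interval and lines at the 1.3-fold limit. *Ago1* after miR-25 lies at 0.84, *Ago3* after miR-25 at -0.63, *Ago2* after miR-106b and miR-93 at -0.44 and -0.50 and *Dicer1* after miR-25 at -0.40, and the other members that were compared lie inside the limit.

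Taking the 4 Argonautes as a sum, RPKM was 19.1 after miR-106b, 18.6 after miR-93, 30.2 after miR-25 and 25.2 after cel-miR-67. The sum was under the control by a log2 of -0.40 after miR-106b and -0.44 after miR-93 and above it by 0.26 after miR-25. *Ago2* held 72.7%, 71.7%, 76.5% and 74.9% of the sum in this order of mimics, so its share moved little while its level did. The smaller shares shifted after miR-25: *Ago3* held 7.58% of the sum there against 14.9% after miR-106b, 14.7% after miR-93 and 14.1% after cel-miR-67, and *Ago1* held 13.7% against 9.68%, 10.3% and 9.22%. The Argonautes are close paralogs, and how reads that match several genes were counted is not given in the sources used here, so a split of reads between them is uncertain.

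Ratios within a library leave out any difference in library scaling. They were taken for a few named pairs outside the fixed plan, and they restate the separate values of those members. The ratio of *Ago1* to *Ago3* was 0.648 after miR-106b, 0.702 after miR-93 and 0.656 after cel-miR-67, and 1.81 after miR-25. After miR-25 it was above the control by a log2 of 1.46 (1.06 to 1.86), and after miR-106b and miR-93 the differences of -0.02 (-0.44 to 0.40) and 0.10 (-0.33 to 0.53) were within counting error. *Ago3* was therefore the more abundant of the pair in 3 libraries and *Ago1* in the miR-25 library. The ratio of *Ago2* to *Ago3* was 4.86, 4.88, 10.1 and 5.33 in the order miR-106b, miR-93, miR-25 and cel-miR-67, a log2 of 0.92 (0.63 to 1.22) above the control after miR-25. *Ago1* was also higher relative to *Ago2* after miR-25, by a log2 of 0.54 (0.24 to 0.85).

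**Figure D3:**
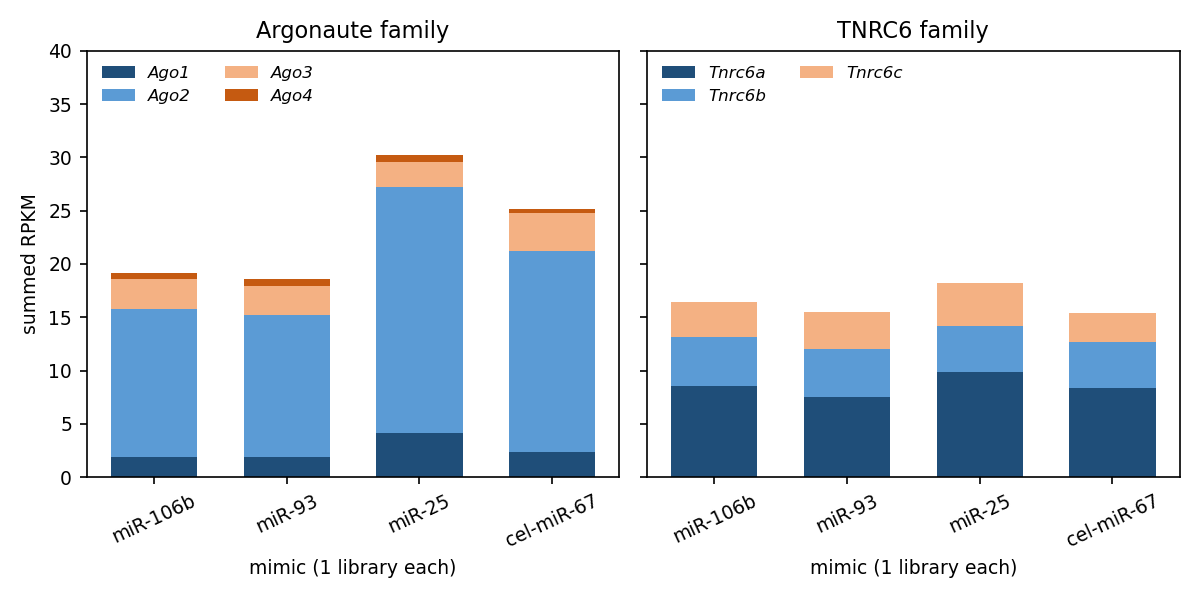
Stacked RPKM of the 4 Argonautes and of the 3 TNRC6 genes in the library of each mimic, from 0. The Argonaute sum runs from 18.6 after miR-93 to 30.2 after miR-25, most of it *Ago2*, and the TNRC6 sum from 15.4 after cel-miR-67 to 18.2 after miR-25.

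*Ago1* and *Ago3*, which moved in opposite directions after miR-25, are neighbours. In the RefSeq gene table of GRCr8 the order on chromosome 5 is *Ago3*, *Ago1*, *Ago4*, with no other protein-coding gene between them. Stretches of 120 bases from the promoters of *Ago1* (chr5:144041645-144041764, minus strand, within the annotated span of *Ago1*) and *Ago3* (chr5:143998758-143998877, minus strand) are printed to show both start regions side by side, each ending 20 bases before the annotated start site, with CG dinucleotides in capitals.
Ago1: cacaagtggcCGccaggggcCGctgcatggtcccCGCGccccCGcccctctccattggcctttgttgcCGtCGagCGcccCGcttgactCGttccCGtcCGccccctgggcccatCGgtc
Ago3: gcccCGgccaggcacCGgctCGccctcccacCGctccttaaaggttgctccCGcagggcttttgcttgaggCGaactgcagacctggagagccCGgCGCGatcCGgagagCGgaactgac
The *Ago1* stretch holds 13 CG dinucleotides and the *Ago3* stretch 11. Promoters were in the RefSeq table for 8 of the 10 members, not for *Ago2* and *Tnrc6b*. In the 250 bases before the start site these 8 held between 19 and 34 CG dinucleotides, with a median of 26, and the median was 17 over 7485 promoters of genes above RPKM 1.0 in the control library and 5 over all 33469 promoters. The letters TATAAA, searched on both strands with no overlap to CG, were in 0 of the 8, in 6.19% of the promoters of expressed genes and in 12.9% of all promoters. The steady *Xpo5*, with 31 CG dinucleotides, and *Ago3*, more variable in the deposited values, with 28, were both CG-rich.

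Of the TNRC6 scaffolds, which bind Argonautes and recruit the deadenylation machinery, *Tnrc6a* and *Tnrc6b* varied less than *Ago1* and *Ago2*. *Tnrc6a* had 8.53 RPKM after miR-106b, 7.48 after miR-93, 9.86 after miR-25 and 8.39 after cel-miR-67. Its highest library was that of miR-25, at a log2 fold change of 0.23 (0.14 to 0.32), and its lowest that of miR-93, at -0.17 (-0.26 to -0.07), both inside the limit. After rescaling to the reads on listed genes *Tnrc6a* after miR-25 came to 0.38, past the limit, and after miR-93 to -0.02 (-0.12 to 0.08), within counting error. *Tnrc6b* had 4.58, 4.52, 4.33 and 4.26 RPKM, and no neighbouring libraries could be separated. Its highest library, that of miR-106b, was above its lowest, the control, by a log2 of 0.11 (0.02 to 0.19). After rescaling all 3 mimic libraries of *Tnrc6b* were above the control beyond counting error, at 0.19, 0.23 and 0.17. The medians of all genes compared were themselves 0.08, 0.14 and 0.13 after that rescaling, so much of these differences was shared with other genes. *Tnrc6c* had 3.32, 3.45, 4.03 and 2.702 RPKM and was higher after miR-25, at a log2 fold change of 0.58, with values of 0.30 and 0.35 after miR-106b and miR-93. The 3 scaffolds summed to 16.4, 15.5, 18.2 and 15.4 RPKM. Per length, summed TNRC6 thus stood under summed Argonautes in every library. The values were 15.5 against 18.6 RPKM after miR-93 and 18.2 against 30.2 after miR-25. This order depends on the gene lengths, which were recovered as 3116 bases for *Ago2*, 8819 for *Tnrc6a* and 18243 for *Tnrc6b*. In reads after miR-106b, *Ago2* had 1289, under 2237 of *Tnrc6a* and 2487 of *Tnrc6b*.

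Between the mimics that share a seed, few members differed beyond counting error. Between miR-93 and miR-106b the log2 differences of all 10 members lay between -0.19 and 0.20, and the intervals of 8 of the 10 included 0. The 2 exceptions were *Tnrc6a*, lower after miR-93 at -0.19 (-0.28 to -0.10), and *Xpo5*, lower at -0.11 (-0.20 to -0.01). Between miR-25 and miR-93, *Ago1* differed by 1.11 (0.83 to 1.40), *Ago2* by 0.80, *Dicer1* by -0.46 (-0.57 to -0.35) and *Tnrc6a* by 0.40 (0.31 to 0.49). *Drosha* differed by 0.35 (0.15 to 0.55) and *Xpo5* by 0.15 (0.06 to 0.25). The intervals of *Dgcr8*, *Ago3*, *Ago4* and *Tnrc6b* included 0. These pairs compare single libraries and do not use the control library. The share of all genes that differ between 2 mimics was not taken, so these counts are no result about the members.

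Markers of some other cell types moved with the same libraries. In the miR-25 library, which had high *Ago1* and *Ago2* and low *Ago3* and *Dicer1*, all 4 smooth muscle and pericyte markers were higher than after cel-miR-67. Their sum was 487 against 190 RPKM, most of it *Acta2* at 440 against 164 RPKM. The endothelial sum in that library was 3.58 against 3.75 RPKM, with *Kdr* higher at 2.29 against 1.26 and *Tek* lower at 1.02 against 2.09. The macrophage sum was 3.52 against 6.54 RPKM, with 1 of 4 markers called lower and 0 higher. In that library 7 of 8 cardiomyocyte markers were lower and 1 was higher, and the sum was 11077 against 14335. The marker that was higher was *Nppa*, at 4425 against 1860 RPKM, and the sum of the other 7, taken after the values were seen, was 6652 against 12474 RPKM. Fibroblast markers were lower for 5 of 6 after miR-106b, 4 of 6 after miR-93 and 5 of 6 after miR-25, with sums of 136, 164 and 110.0 against 210 RPKM. The remaining fibroblast marker after miR-25, *Lum*, was higher at 10.1 against 5.52 RPKM. The part of these markers in the member values was not tested. In RNA of a whole culture fewer cells of a type and less RNA per cell cannot be told apart. *Mcm7*, the host gene of the cluster, had 23.4 RPKM after miR-106b, 19.1 after miR-93, 9.87 after miR-25 and 23.2 after cel-miR-67, and its log2 fold change after miR-25 was -1.23.

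The genes that work with the members were described through 6 lists of named cofactors. Over the lists, 74 genes were compared after miR-106b, 73 after miR-93 and 74 after miR-25. Of these, 3, 7 and 7 were higher, or 4.05%, 9.59% and 9.46%, and 5, 5 and 10 were lower, or 6.76%, 6.85% and 13.5%. Each of these pooled shares was under the share of all genes called in the same direction, which single lists were not always, and a list's share is given below beside that of all genes where it was larger.

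Among 12 nuclear cofactors, which assist Drosha or bind hairpins, 1 was higher and 2 lower after miR-106b, 2 higher and 1 lower after miR-93, and 0 higher and 2 lower after miR-25. The 2 of 12 lower after miR-106b are 16.7% against 12.7% of all genes, and the 2 higher after miR-93 are 16.7% against 15.1%. In the other cases the share was under that of all genes. The list medians were 0.24, 0.07 and -0.08 on the log2 scale, and the last turned to 0.07 after rescaling to the reads on listed genes. *Ddx5*, an RNA helicase of the Drosha complex, had 143 RPKM after miR-106b and 151 after miR-93 against 219 after miR-25 and 211 after cel-miR-67. It was lower with the first 2 mimics, at -0.57 and -0.48. Its paralog *Ddx17* was higher after miR-93, at 0.47. *Ran*, the GTPase that Exportin-5 needs to hold its cargo, was higher after miR-106b at 274 against 203 RPKM, a log2 fold change of 0.43. *Adarb1*, an RNA-editing enzyme, was lower after miR-106b at -0.62, and *Khsrp*, which binds hairpin loops, was higher after miR-93 at 0.47. The splicing factors *Srsf3* and *Hnrnpa1* were lower after miR-25 at -0.43 and -0.40.

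Among 18 Dicer partners and RISC loading factors, 2 were higher and 0 lower after miR-106b, 4 higher and 1 lower after miR-93, and 1 higher and 5 lower after miR-25. The 4 of 18 higher after miR-93 are 22.2% against 15.1% of all genes and the 5 lower after miR-25 are 27.8% against 22.6%, with no test of either, and the other shares were under those of all genes. *Prkra*, a double-stranded RNA binding partner of Dicer, was the listed gene higher with all 3 mimics, and its low value in the shared control library enters all 3 differences. Its RPKM was 21.1 after miR-106b, 22.5 after miR-93, 18.6 after miR-25 and 12.3 after cel-miR-67, and the log2 fold changes were 0.78 (0.62 to 0.95), 0.88 (0.71 to 1.04) and 0.60 (0.43 to 0.77). *Fkbp4*, a co-chaperone of Hsp90, had 35.5, 46.6, 17.8 and 27.3 RPKM, so it was higher after miR-106b and miR-93, the second at 0.77, and lower after miR-25 at -0.62. The RNA-binding proteins *Fmr1* and *Fxr1*, which associate with Argonautes, were lower after miR-25 at -0.86 and -0.63. *Snd1*, a nuclease found with RISC, was lower after miR-93 at -0.44. The list medians were 0.18, 0.10 and -0.08, and the last came to 0.07 with rescaling to the reads on listed genes.

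Among 20 deadenylation genes, 0 were higher and 2 lower after miR-106b, 1 higher and 3 lower after miR-93, and 3 higher and 3 lower after miR-25, with medians of 0.01, 0.03 and -0.03. The largest shares, 3 of 20 or 15%, stood against 15.6% of all genes lower after miR-93 and against 19.3% higher and 22.6% lower after miR-25, so the counts were at or under the background. *Cnot7*, a catalytic subunit of the CCR4-NOT complex, was lower after miR-106b and miR-93, at 13.5 and 12.7 against 17.7 RPKM, and had 18.0 RPKM after miR-25. *Btg2*, which binds that subunit and restrains proliferation, was lower after miR-93 and miR-25 at -0.90 and -0.95, with 18.2 and 17.6 against 34.05 RPKM. Its paralog *Btg1* was lower after miR-93 at -0.48 and higher after miR-25 at 0.56. *Tob2*, a related adaptor, was lower after miR-106b at -0.44, and *Cnot10*, a subunit of the complex, was higher after miR-93 at 0.54. After miR-25, *Parn*, a poly(A) exonuclease, was higher at 0.82 and *Cnot11* at 0.68, and *Cnot6*, another catalytic subunit, was lower at -0.52.

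Among the decapping and decay genes 16, 15 and 16 were compared after miR-106b, miR-93 and miR-25. None was higher or lower after miR-93, 0 were higher and 1 lower after miR-106b, and 3 were higher and 0 lower after miR-25. The 3 of 16 higher after miR-25 are 18.8% against 19.3% of all genes. The medians were 0.04, 0.04 and 0.16. *Ajuba*, a LIM protein tied to silencing, was higher after miR-25 at 33.4 against 20.6 RPKM, a log2 fold change of 0.70 (0.61 to 0.79). *Dcp1b*, a decapping cofactor, was higher after miR-25 at 0.45 (0.02 to 0.89) and lower after miR-106b at -0.49 (-0.99 to 0.00), the second within counting error. Of 8 genes for tailing and turnover of miRNAs 0 were called with any mimic, with medians of -0.13, -0.02 and 0.04, and the 2 Piwi genes listed were under RPKM 1.0 in at least 1 library of every comparison.

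**Figure D4:**
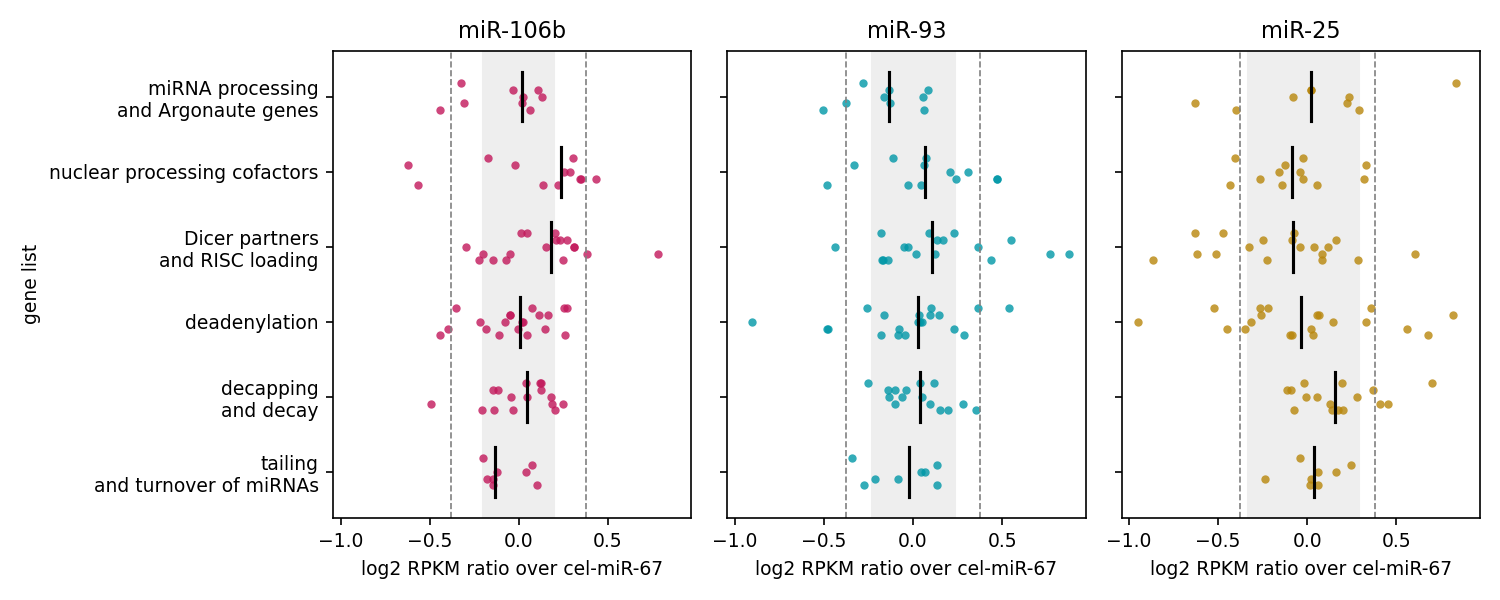
Log2 fold change of RPKM over cel-miR-67 for each compared gene of the members and of the cofactor lists, in 1 panel for each mimic, with black bars at the medians, dashed lines at the 1.3-fold limit and a grey band between the quartiles of all genes compared. Most genes lie inside the limit, and the medians run from -0.14 to 0.24.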

How the data were processed

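Total RNA of the 4 cultures was sequenced after TruSeq library preparation. The authors checked reads with FASTQC, trimmed adaptors with Cutadapt, aligned them to Rnor_6.0 with STAR 2.7 and computed RPKM with the rpkm function of edgeR. The deposited RPKM values of 15731 genes are normalized to the authors' library sizes and gene lengths. The program that counted reads on genes is not given in the sources used here.

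Whole reads were recovered from the steps between RPKM values (tolerance 0.001) for all 15731 genes, and gave the exact Clopper-Pearson intervals. Recovery and intervals were tried on simulated reads that held counting error only, so that trial says nothing of variation between cultures. RPKM above 1.0 in both libraries and a 1.3-fold limit were used, with no pseudocount and no count test, since each mimic has 1 library. The members and lists were chosen with earlier results of these data known. Named were all members, *Tnrc6c*, *Mcm7* and, from each list, genes called alike with all mimics and the 2 largest differences in each direction for each mimic. Of the symbols, 176 are listed more than once and stayed out of the lists. Promoters and miRNAs came from RefSeq tables on GRCr8, and were joined by symbol, with no coordinates taken from Rnor_6.0. Other limits, pseudocounts and scalings were tried. Scripts ran in Python 3.11.15, intervals came from scipy 1.17.1, tables from pandas 2.3.3 with numpy 2.4.6, and plots from matplotlib 3.10.9.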

Additional observations from a re-analysis of the deposited data

How the results depend on the processing

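No paired analysis was possible because each mimic has 1 library, and for the same reason no library could be left out. Of 241 recomputed log2 fold changes of single members, 222 stayed within their counting interval, 19 moved beyond it and 0 reversed a call. Many of the 222 could not move, since other limits on RPKM or fold leave a single log2 fold change as it was. All 19 that moved did so under a rescaling to reads on listed genes, and calls were gained or lost without being reversed. Without a limit on low values the genes higher and lower were 2785 and 2935 after miR-106b, 3249 and 3080 after miR-93, and 3712 and 4032 after miR-25, and *Ago4* made 1 member higher after miR-93 and 2 after miR-25. At a 1.5-fold limit the genes numbered 588 and 647, 781 and 942, and 1189 and 1538. Members higher were then 0, 0 and 1, and members lower 0, 0 and 1. At 2-fold they numbered 139 and 150, 192 and 289, and 360 and 561, and 0 members were called. With a pseudocount of 1, 1 member was higher and 1 lower after miR-25. Centring on the median gene changed no member call.

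Rescaling to the reads on listed genes added 0.08, 0.15 and 0.15 to every log2 fold change after miR-106b, miR-93 and miR-25. Genes higher and lower were then 1882 and 1037 after miR-106b (1339 and 1437 as deposited), 2836 and 1117 after miR-93 (1707 and 1762) and 3284 and 1820 after miR-25 (2166 and 2532). Members lower were 0 after miR-106b and 0 after miR-93, and after miR-25 3 were higher and 1 lower. Member medians were 0.010 after miR-93 and 0.17 after miR-25, where the medians of all genes compared were 0.14 and 0.13. List medians after miR-93 were 0.21 for nuclear cofactors, 0.25 for Dicer partners and 0.12 for tailing genes, and after miR-25 they were 0.066, 0.069 and 0.19, with 0.30 for decapping. Rescaling without 21 mitochondrial and most-read genes gave 2565 genes higher after miR-93, a member median of -0.020, and list medians of 0.18 for nuclear cofactors and 0.22 for Dicer partners, and after miR-25 2 members higher, 1 lower and a nuclear cofactor median of 0.013. In all, 24 of 27 recomputed member medians and 125 of 135 list medians stayed within counting error. These totals include the other fold limits, which leave a median as it was, and every median that moved did so under a rescaling. Depth limits *Ago4* and *Ago1* most, at 38 and 152 reads in the control library.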
